A study of Mus musculus with 34 samples.

Results

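The genes described here are 8 chemokines that dendritic cells (DCs) can secrete to attract T cells: Ccl22, Ccl17, Ccl5, Ccl3, Ccl4, Cxcl9, Cxcl10 and Cxcl16. They were chosen by name, as probe sets annotated to exactly 1 member symbol. Each of the 8 had 1 such probe set, so 8 of the 22180 genes measured on the arrays are described, all of them in every group. In the spleens studied here, the loss of Mst1/2 was accompanied by lower Ccl22, Ccl5 and Cxcl10 in CD8+ DCs, by lower Ccl5 and Cxcl16 in CD8- DCs, and by lower Ccl5 and Ccl3 in total DCs. A test of the effect between the subsets called Ccl22 and Ccl5, but neither Cxcl10 nor Cxcl16. The results for Cxcl16 in CD8- DCs and Ccl3 in total DCs did not hold in every alternative analysis.

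Chemokines are small secreted proteins that guide leukocytes through G protein-coupled receptors. CCL22 and CCL17 are the ligands of CCR4, which regulatory T cells and T helper 2 cells carry. CCL5, CCL3 and CCL4 are inflammatory chemokines that attract activated and memory T cells, CXCL9 and CXCL10 are interferon-induced ligands of CXCR3 on effector T cells, and CXCL16 is made as a membrane protein that binds CXCR6 and is shed by the proteases ADAM10 and ADAM17. In the spleen, CD8+ DCs are known for cross-presenting antigen to CD8 T cells, and CD8- DCs for presenting antigen to CD4 T cells.

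All DCs were sorted from the spleens of C57BL/6 mice and profiled on 34 arrays. Wild-type (WT) and Mst1/2-KO mice, the latter given as Mst1/2-/- and lacking a pair of Hippo pathway kinases, provided sorted CD8+ and CD8- DCs on 4 arrays for each of the 4 groups, and total DCs on 4 WT and 3 Mst1/2-KO arrays. Rag1-KO mice, which have no mature T or B cells, provided anti-CD40-stimulated DCs, anti-CD40 being an antibody against a receptor through which T cells activate DCs. Experiment 1 set 4 of these stimulated Rag1-KO arrays beside a group of 3 labelled Rag1-KO p38-KO, and both groups thus carried the Rag1 deletion and the stimulation. Experiment 2 held 2 anti-CD40 Rag1-KO arrays, numbered 1 and 3, with 1 anti-CD40 WT array and 1 non-stimulated Rag1-KO array. The Mst1/2-KO comparisons carried no stated stimulation. The labels do not give the animals' age, the promoter or cell type in which a deletion was made, or whether each array stands for an animal of its own, and p-values therefore measure only the spread between these arrays.

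Values are deposited log2 signals, and array medians over all probe sets lay between 4.11 and 4.20. Levels are comparable only within an experiment identifier, and a level of one gene is not set against that of another, since probe sets differ in response. Differences are log2 differences ± standard error from limma, while group means are given ± SD. Calls were made where the adjusted p (Benjamini-Hochberg, over all 22180 genes) was under 0.05. Stk4, which encodes Mst1, was lower in Mst1/2-KO arrays by 1.81-fold in CD8+, 1.70-fold in CD8- and 2.13-fold in total DCs (adjusted p = 0.000166, 0.000211 and 0.00154), while Stk3, which encodes Mst2, is not analysed here. Mapk14, the gene of p38 alpha, was not lower in the arrays labelled Rag1-KO p38-KO (8.47 ± 0.08, n = 3) than in Rag1-KO arrays (8.24 ± 0.26, n = 4, adjusted p = 0.657). The label does not say which p38 gene was deleted, and where the Mapk14 probes lie relative to a deletion is not known, so that this label is not checked by the data. In WT cells all 10 CD8+ DC markers were called higher in CD8+ DCs and all 10 CD8- DC markers higher in CD8- DCs, as the sorts name them.

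The first comparison asked which chemokines mark each WT subset. Of the 8 chemokines, 4 were called higher in CD8+ DCs (Ccl22, Cxcl9, Cxcl10 and Cxcl16) and 3 higher in CD8- DCs (Ccl5, Ccl3 and Ccl4), while over all genes 21% were called, 11% higher and 10% lower in CD8+ DCs. For these 7 genes the 4 arrays of each subset did not overlap with those of the other, which held for 22.4% of all genes. Ccl5, Ccl3 and Ccl4 therefore lay on the CD8- side, and the CXCR3 and CXCR6 ligands on the CD8+ side, with the CCR4 ligand Ccl22.

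Ccl22 stood at 10.61, 10.72, 10.71 and 10.84 in the WT CD8+ arrays and at 8.27, 7.58, 7.62 and 8.55 in the WT CD8- arrays. It was 6.56-fold higher in CD8+ DCs (2.71 ± 0.22, 95% interval 2.25 to 3.17, adjusted p = 3.41e-08). The CD8+ arrays lay within 0.09 (SD) of their mean, and each was over every CD8- array. Ccl17, the other CCR4 ligand, ranged from 4.10 to 4.91 in CD8+ and from 4.02 to 4.96 in CD8- arrays, close to the array medians. Its subsets overlapped throughout (0.15 ± 0.26, interval -0.41 to 0.70, adjusted p = 0.788).

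Ccl5 stood at 11.19, 11.29, 11.31 and 11.39 in CD8+ and at 11.96, 12.24, 12.12 and 12.16 in CD8- DCs. It was 1.77-fold lower in CD8+ DCs (-0.83 ± 0.15, adjusted p = 0.000629), with a tight spread in both subsets. Ccl3, also called MIP-1 alpha, read 9.88, 10.32, 9.62 and 10.31 in CD8+ against 11.77, 11.52, 11.57 and 11.43 in CD8- DCs. This 2.90-fold difference (-1.54 ± 0.26, adjusted p = 0.000211) was the widest of Ccl5, Ccl3 and Ccl4, and no CD8+ array reached a CD8- array. Ccl4, also called MIP-1 beta, read 10.57, 10.72, 9.98 and 10.59 against 11.25, 10.97, 10.91 and 10.91. Its difference was smaller (-0.55 ± 0.18, adjusted p = 0.0429). That call ended with quantile normalization (adjusted p = 0.0572) and without any 1 of 7 of the 8 arrays (adjusted p from 0.0530 to 0.157). It held with a block on the replicate number (-0.55 ± 0.12, adjusted p = 0.00657). Over all alternatives the adjusted p ran from 0.00657 to 0.157.

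Cxcl9 stood at 12.09, 11.89, 11.79 and 11.77 in CD8+ and at 9.62, 10.13, 9.78 and 10.09 in CD8- DCs, a 3.95-fold difference (1.98 ± 0.12, adjusted p = 9.37e-10). The lowest CD8+ array lay far over the highest CD8- array. Cxcl10 read 8.78, 7.90, 7.83 and 8.41 in CD8+ against 7.55, 7.28, 7.44 and 7.73 in CD8- DCs and was 1.66-fold higher in CD8+ DCs (0.73 ± 0.19, adjusted p = 0.00916). Its CD8+ arrays were spread, and the lowest of them lay just over the highest CD8- array. Cxcl16 read 10.34, 10.24, 10.22 and 10.21 against 9.72, 9.14, 8.97 and 9.35, a 1.94-fold difference (0.96 ± 0.12, adjusted p = 1.38e-05) without overlap.

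In the same WT comparison, most markers of T cells, NK cells, and macrophages and monocytes were also higher in CD8- DCs. For T cell markers this held for 7 of 8 (mean log2 over the list 4.93 to 5.61 in CD8- against 4.17 to 4.43 in CD8+ arrays), for NK cell markers for 6 of 8 (5.21 to 6.22 against 4.62 to 4.71) and for macrophage and monocyte markers for 10 of 12 (8.04 to 8.44 against 6.82 to 7.22). The B cell and plasmacytoid DC lists were mixed. Of the B cell markers 4 of 8 were called higher in CD8- and 1 in CD8+ DCs, and of the plasmacytoid DC markers 2 of 8 and 1. T and NK cells are also known to make Ccl5, Ccl3 and Ccl4, and the part of these markers in the CD8- values was not tested. In bulk samples, fewer cells of a type and less RNA per cell cannot be told apart. Among the 27 other chemokines measured, 3 were higher and 3 lower in CD8+ DCs, with a median difference of -0.01 against 0.02 over all genes. They included Xcl1, which attracts XCR1-bearing CD8+ DCs (-3.48 ± 0.30), Ccl9 (-2.67 ± 0.25) and Ccl7, a monocyte chemoattractant (1.68 ± 0.30). Of 13 measured receptors and processing genes, 2 were higher and 2 lower, among them Cxcr3, the receptor of Cxcl9 and Cxcl10 (1.60 ± 0.16), the atypical chemokine receptor gene Ackr1 (-2.84 ± 0.18) and Ccr1, a receptor of Ccl3 and Ccl5 (-0.81 ± 0.20). Of 12 NF-kB subunits and inhibitors, 10 were lower in CD8+ DCs (median -0.78), led by Bcl3 (-2.07 ± 0.14), Relb (-1.47 ± 0.14) and Nfkbiz (-1.03 ± 0.18). Of 21 interferon and STAT regulators, 3 were higher and 6 lower (median -0.09), with Irf8, which CD8+ DCs need to develop, at 2.77 ± 0.23, and Irf4 at -3.76 ± 0.21 and Stat4 at -4.38 ± 0.25.

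**Figure D1:**
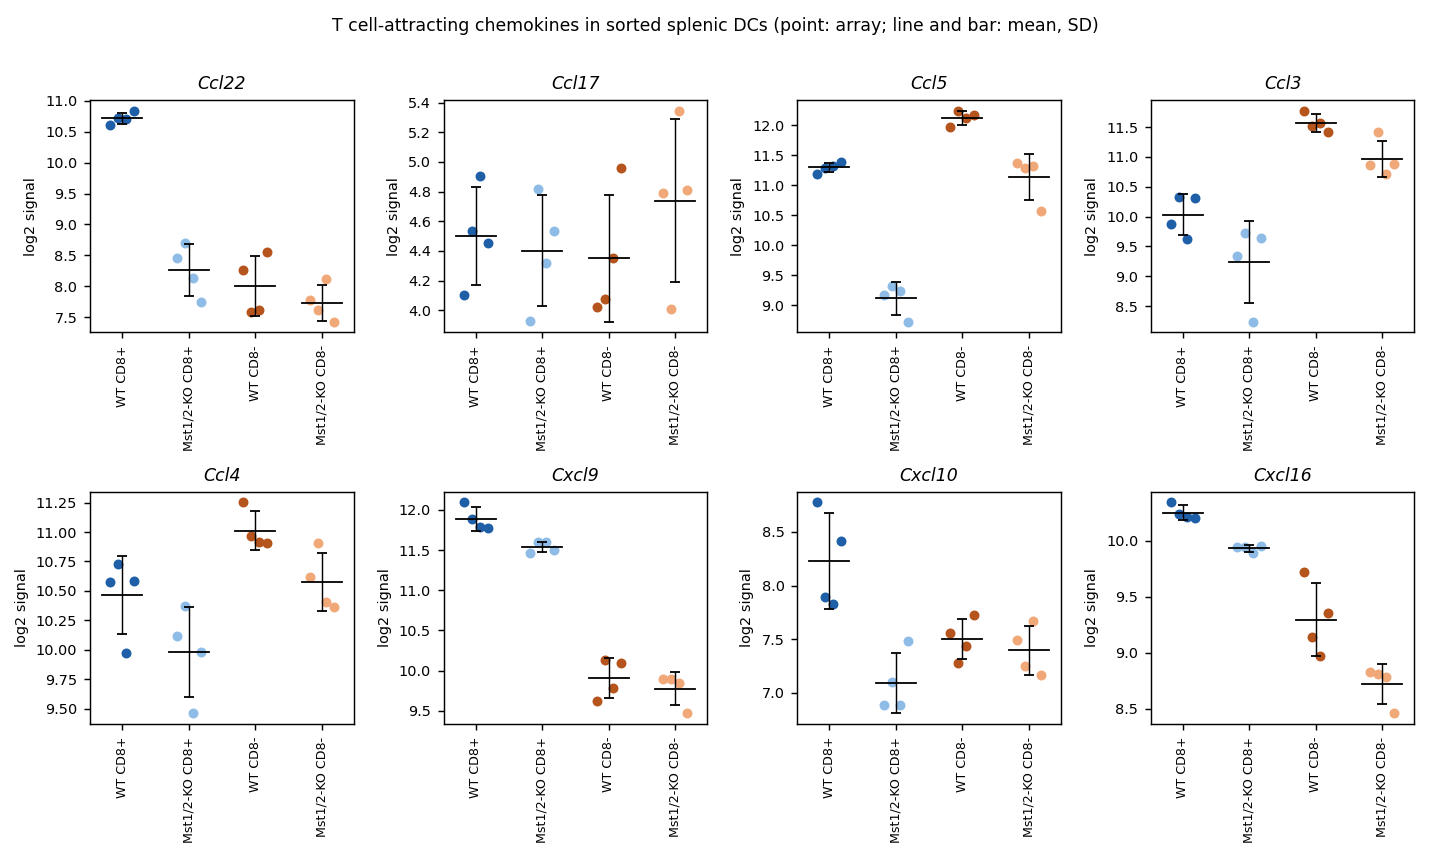
Log2 signal (y axis) of the 8 chemokine genes in the 4 groups of sorted splenic DCs (x axis); each point is 1 of 4 arrays, the line is the mean and the bar the SD. WT CD8+ arrays of Ccl22 (10.61 to 10.84) lie over all other groups, and the CD8+ and CD8- arrays of Cxcl9 and Cxcl16 lie apart in both genotypes.

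The next comparison asked what the Mst1/2 deletion changes in CD8+ DCs. Ccl22, Ccl5 and Cxcl10 were called lower, which is 3 of 8 chemokines against 0.888% of all genes called in either direction and 0.654% called lower. All 8 estimates were below 0, 7 had an unadjusted p under 0.05 (10.6% of all genes), and in 5 the genotypes did not overlap, with the Mst1/2-KO arrays lower (3.03% of all genes). The median of the 8 differences was -0.64, against 0.00 over all genes. None of the 3 calls ended under any of the 16 alternative analyses run.

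Ccl22 stood at 8.46, 8.71, 8.14 and 7.74 in the Mst1/2-KO CD8+ arrays, against 10.61 to 10.84 in WT. The 4.55-fold fall of Ccl5, from 11.30 ± 0.08 to 9.11 ± 0.27 (SD, n = 4 and 4), was of similar size to the 5.49-fold fall of Ccl22 (-2.46 ± 0.22, 95% interval of the fold 3.99 to 7.54, adjusted p = 5.64e-06). The Mst1/2-KO CD8+ arrays of Ccl22 thus reached the WT CD8- range of 7.58 to 8.55, with only replicate 2 over it. Ccl17 read 3.93, 4.82, 4.32 and 4.54 in Mst1/2-KO and was not called (-0.10 ± 0.26, interval -0.65 to 0.46, adjusted p = 0.947).

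Ccl5 read 9.16, 9.32, 9.24 and 8.72 in Mst1/2-KO CD8+ DCs (difference -2.18 ± 0.15, interval -2.51 to -1.86, adjusted p = 5.56e-07). Every Mst1/2-KO array lay over a log2 unit below the lowest array of any other sorted group, which was 10.57. Ccl3 read 9.33, 9.72, 8.24 and 9.65, and Ccl4 10.12, 10.37, 9.46 and 9.98, with replicate 3 the lowest of both. Their differences, -0.80 ± 0.26 (adjusted p = 0.211) and -0.48 ± 0.18 (adjusted p = 0.330), were not called, and the genotypes overlapped.

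Cxcl10 read 6.88, 7.10, 6.88 and 7.48 in Mst1/2-KO CD8+ DCs, a 2.20-fold fall (-1.14 ± 0.19, interval -1.54 to -0.74, adjusted p = 0.00447). All 4 arrays lay below the lowest WT CD8+ array. Cxcl9 read 11.47, 11.59, 11.60 and 11.51 in Mst1/2-KO, under the WT range of 11.77 to 12.09, yet its difference of -0.35 ± 0.12 was not called (adjusted p = 0.263). The same held for Cxcl16, with 9.95, 9.95, 9.89 and 9.95 in Mst1/2-KO against 10.21 to 10.34 in WT (-0.32 ± 0.12, adjusted p = 0.341). Both genes had non-overlapping genotypes and intervals that left room for falls of at most 0.60 and 0.58 on the log2 scale.

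Of the CD8+ DC markers 0 of 10 were called in this comparison, with a mean over the list of 10.74 to 10.91 in WT and 10.77 to 10.90 in Mst1/2-KO arrays. Of the CD8- DC markers 1 of 10 was called higher, with differences from -0.76 to 0.71, 4 of them with an unadjusted p under 0.05 (mean over the list 5.18 to 5.62 in WT and 5.23 to 5.36 in Mst1/2-KO arrays). Of the pan-DC markers 1 of 6, Ccr7, was called lower (10.26 to 10.39 against 9.83 to 10.00). Of the T cell, NK cell, macrophage and monocyte, neutrophil, B cell and plasmacytoid DC markers, 0 were called, and the part of the marker differences in the chemokine values was not tested. The mean of 4 Y-linked and Xist genes was 5.53 (5.44 to 5.73) in WT and 5.23 (4.87 to 5.55) in Mst1/2-KO CD8+ arrays. Such a mean can hide changes of opposite sign. The differences of the 4 genes ran from -0.56 to -0.01, with 0 called and 1 at an unadjusted p under 0.05. Their part in the chemokine differences was not tested. Of the 12 NF-kB subunits and inhibitors 7 were called lower (median -0.52). They included the inhibitor gene Tnfaip3 (-0.93 ± 0.19), the subunit gene Relb (-0.86 ± 0.14) and Bcl3 (-0.79 ± 0.14). Among the other chemokines 0 of 27 were called (median -0.04). Of the receptors and processing genes, Ccr7, which guides DCs to T cell zones, fell by 2.34 on the log2 scale (from 10.07 ± 0.33 to 7.73 ± 0.60), and Adam17, which sheds CXCL16, by 0.39 (8.93 ± 0.17 to 8.53 ± 0.07). Of the 21 interferon and STAT regulators 1 fell, the cytokine signalling suppressor gene Socs2 (-2.10 ± 0.32), and 0 rose (median -0.05).

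Several of the 8 genes are near neighbours. In the order of protein-coding genes in RefSeq, Ccl22 and Ccl17 lie on chromosome 8 with Cx3cl1 between them, Cxcl9 and Cxcl10 on chromosome 5 with Art3 between them, and Ccl5, Ccl3 and Ccl4 on chromosome 11, where Ccl3 and Ccl4 are adjacent and Ccl9 and Ccl6 lie between Ccl5 and Ccl3. Cx3cl1, between the CCR4 ligand genes, read 4.45 ± 0.04 in WT and 4.51 ± 0.23 in Mst1/2-KO CD8+ DCs. The 250 bases upstream of the start of 5 of the 8 genes were at hand (RefSeq, build GRCm38.p6), and the windows of the pairs Ccl22 with Ccl17 and Cxcl9 with Cxcl10 are shown because the members of each pair lie close together and had unlike values. They run from 5′ to 3′ along the gene's strand up to the base before its start, at chr8:94745434-94745683 (plus strand) for Ccl22, chr8:94810203-94810452 (plus) for Ccl17, chr5:92328080-92328329 (minus) for Cxcl9 and chr5:92348890-92349139 (minus) for Cxcl10, and capitals mark matches to 4 motifs searched on both strands.
Ccl22: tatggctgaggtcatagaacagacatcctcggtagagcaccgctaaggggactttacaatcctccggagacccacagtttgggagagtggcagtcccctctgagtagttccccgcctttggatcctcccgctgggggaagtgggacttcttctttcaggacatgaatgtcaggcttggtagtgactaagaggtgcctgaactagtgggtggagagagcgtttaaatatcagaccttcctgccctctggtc
Ccl17: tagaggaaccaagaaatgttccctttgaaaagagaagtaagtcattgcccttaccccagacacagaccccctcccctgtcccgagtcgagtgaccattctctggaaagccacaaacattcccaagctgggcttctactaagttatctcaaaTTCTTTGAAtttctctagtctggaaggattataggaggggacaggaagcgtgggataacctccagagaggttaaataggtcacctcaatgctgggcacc
Cxcl9: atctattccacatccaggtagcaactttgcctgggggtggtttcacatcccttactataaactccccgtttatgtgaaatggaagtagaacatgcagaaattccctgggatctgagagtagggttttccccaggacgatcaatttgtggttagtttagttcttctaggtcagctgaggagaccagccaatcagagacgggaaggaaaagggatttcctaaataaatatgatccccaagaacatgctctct
Cxcl10: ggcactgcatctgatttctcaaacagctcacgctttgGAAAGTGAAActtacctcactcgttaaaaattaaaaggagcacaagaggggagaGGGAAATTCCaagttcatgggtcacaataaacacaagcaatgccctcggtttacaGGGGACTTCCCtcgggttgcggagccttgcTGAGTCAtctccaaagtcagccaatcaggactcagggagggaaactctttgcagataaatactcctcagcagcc

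The motifs were kappaB, which NF-kB binds, the interferon-stimulated response element (GAAA, any 2 bases, GAAA), the AP-1 site (TGANTCA) and the STAT site called GAS (TTCNNNGAA). Cxcl10 held kappaB matches at bases 159 to 150, 104 to 95 and 103 to 94 before its start, the last of them on both strands and overlapping the one before. It also held an interferon-stimulated response element at bases 213 to 204 and an AP-1 match at bases 74 to 68. Ccl17 held 1 GAS match at bases 99 to 91, and the windows of Ccl22, Cxcl9 and Ccl3 held 0 matches to the 4 motifs. Of 32851 upstream windows of that length, 7.25% held kappaB, 2.98% the interferon element, 6.75% AP-1 and 7.02% GAS. A match describes letters in the window and is neither a bound site nor a cause of the values. Windows for Ccl5, Ccl4 and Cxcl16 were not used here.

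In CD8- DCs the same deletion was accompanied by lower Ccl5 and Cxcl16. These 2 of 8 chemokines compare with 6.68% of all genes called in either direction and 2.79% called lower. Of the 8 estimates 7 were below 0, with a median of -0.36 against 0.00 over all genes, 4 had an unadjusted p under 0.05 (18.1% of all genes), and 4 had Mst1/2-KO arrays that all lay below WT (5.46% of all genes).

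Ccl5 read 11.37, 11.29, 11.32 and 10.57 in Mst1/2-KO CD8- DCs against 11.96 to 12.24 in WT, a 1.98-fold fall (-0.99 ± 0.15, interval -1.31 to -0.66, adjusted p = 0.000797). Replicate 4 was the low array, and without it the difference was -0.80 ± 0.12 (adjusted p = 0.00109; 0.000263 to 0.00832 over the 16 alternatives). Ccl3 read 10.86, 11.42, 10.72 and 10.87 against 11.43 to 11.77, and Ccl4 10.61, 10.90, 10.41 and 10.37 against 10.91 to 11.25. In both genes every Mst1/2-KO array lay below every WT array, by a narrow margin, but neither was called (-0.60 ± 0.26, adjusted p = 0.210, and -0.44 ± 0.18, adjusted p = 0.200). Ccl3 was called when the 8 CD8- arrays were fitted alone (adjusted p = 0.0379; 0.0379 to 0.385 over the alternatives).

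In CD8- DCs Cxcl16 read 8.83, 8.81, 8.78 and 8.46 with the deletion and 8.97 to 9.72 without it, a 1.49-fold fall (-0.58 ± 0.12, interval -0.84 to -0.31, adjusted p = 0.00849). The genotypes did not overlap. The call ended when the 8 CD8- arrays were fitted alone (adjusted p = 0.0586; 0.00315 to 0.0586 over the alternatives). Its neighbours in role showed no called difference, with Cxcl9 at 9.90, 9.89, 9.84 and 9.47 in Mst1/2-KO (-0.13 ± 0.12, interval -0.38 to 0.12, adjusted p = 0.668) and Cxcl10 at 7.49, 7.25, 7.67 and 7.16 (-0.11 ± 0.19, interval -0.51 to 0.29, adjusted p = 0.857).

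Ccl22 read 7.77, 7.62, 8.11 and 7.42 in Mst1/2-KO CD8- DCs and overlapped with WT (-0.27 ± 0.22, interval -0.73 to 0.19, adjusted p = 0.597). Ccl17 read 4.79, 4.01, 5.34 and 4.81 and was the only member with an estimate above 0 (0.39 ± 0.26, interval -0.17 to 0.94, adjusted p = 0.503). Neither CCR4 ligand was thus called in the subset that had the lower WT level of Ccl22.

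Subset markers moved with genotype in CD8- DCs. Of the CD8- DC markers 5 of 10 were called lower and 2 higher (mean over the list 8.71 to 8.83 in WT against 8.11 to 8.40 in Mst1/2-KO arrays), of the CD8+ DC markers 5 of 10 higher and 1 lower (7.49 to 8.01 against 7.78 to 8.27), and of the plasmacytoid DC markers 4 of 8 higher (6.97 to 7.42 against 7.83 to 8.22), Cox6a2 by 3.73 ± 0.17. Of the B cell markers 3 of 8 were lower (5.07 to 5.37 against 4.63 to 4.85), as were 1 T cell and 1 neutrophil marker, and 1 macrophage and monocyte marker was higher and 1 lower. The mean of the Y-linked and Xist genes was 5.68 (5.58 to 5.73) in WT and 5.22 (4.93 to 5.45) in Mst1/2-KO arrays. Of these 4 genes 0 were called and 3 had an unadjusted p under 0.05, with differences from -0.81 to 0.02. The part of all these markers in the Ccl5 and Cxcl16 differences was not tested. Ccl6, which lies beside Ccl3 and Ccl9, rose (0.84 ± 0.17) as 1 of 27 other chemokines, with 0 lower. Of the receptors 1 of 13 rose, Ccr1 (1.53 ± 0.20, from 4.01 ± 0.12 to 5.54 ± 0.58), and 3 fell, among them Ccr7 (-1.86 ± 0.30) and Ackr1 (-0.73 ± 0.18). Of the 12 NF-kB genes 3 fell, Relb (-0.90 ± 0.14), Traf1 (-0.49 ± 0.10) and Birc3 (-0.31 ± 0.09). Of the 21 interferon and STAT regulators Irf8 rose (0.91 ± 0.23), and Socs2 (-1.59 ± 0.32) and Irf1 (-0.58 ± 0.13) fell.

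Whether the deletion acted differently in the subsets was tested as the CD8+ difference minus the CD8- difference. The test called Ccl22 (-2.18 ± 0.31, interval -2.83 to -1.53, adjusted p = 0.00257) and Ccl5 (-1.20 ± 0.22, interval -1.66 to -0.74, adjusted p = 0.0151), 2 of 8 chemokines against 0.559% of all genes in either direction and 0.338% lower. Both fell further in CD8+ DCs, Ccl22 by 4.54-fold and Ccl5 by 2.30-fold more, and both calls held in all 23 alternatives. For Cxcl10, called in CD8+ and not in CD8- DCs, the difference between subsets was -1.03 ± 0.27 and was not called (adjusted p = 0.105; 0.0694 to 0.216 over the alternatives). For Cxcl16, called in CD8- and not in CD8+ DCs, it was 0.26 ± 0.18 (interval -0.11 to 0.63, adjusted p = 0.742). For Ccl3 and Ccl4 the estimates were -0.20 ± 0.36 and -0.04 ± 0.26 (adjusted p = 0.934 and 0.983), and their intervals, -0.96 to 0.57 and -0.59 to 0.50, held subset differences of either sign. Of the genes on the 4 pathway lists, Ccr1 alone was called (-1.54 ± 0.28). On the lists of cell type markers 6 genes were called in the same test: 2 of 10 CD8- DC markers higher, 2 of 8 plasmacytoid DC markers lower (Cox6a2 at -3.19 ± 0.24 and Tcf4 at -1.16 ± 0.21), the B cell marker Cr2 higher (1.57 ± 0.28) and the macrophage marker Adgre1 higher (1.09 ± 0.22). Their part in the Ccl22 and Ccl5 differences was not tested.

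**Figure D2:**
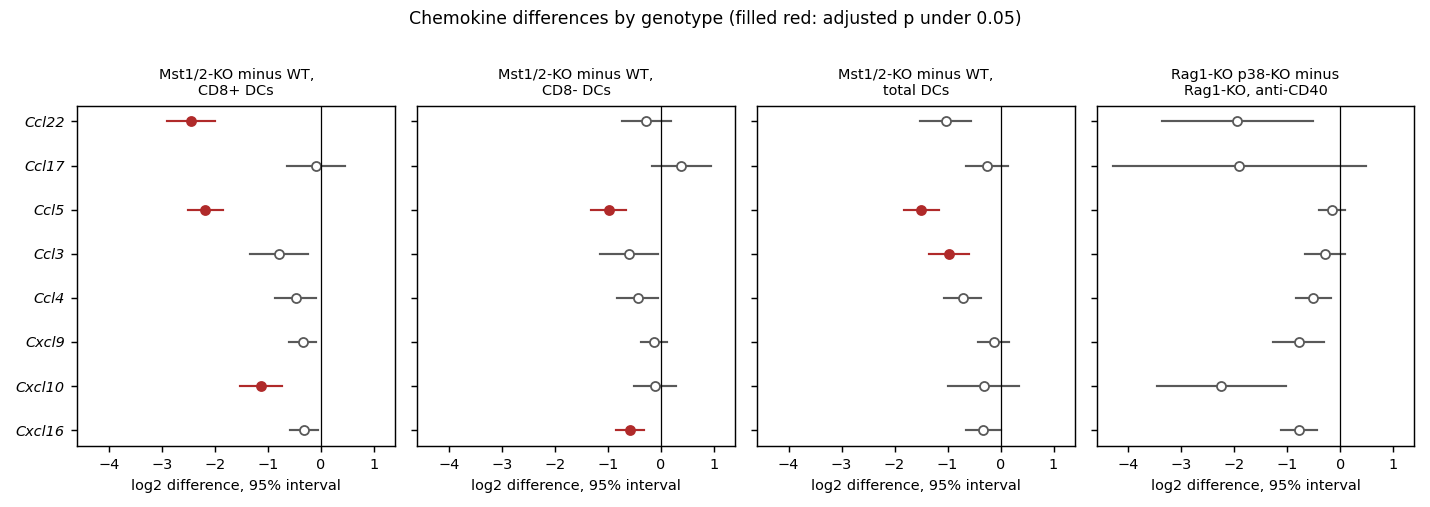
Log2 difference between genotypes (x axis, point with its 95% interval) for the 8 chemokine genes (y axis) in CD8+, CD8- and total DCs (Mst1/2-KO minus WT) and in anti-CD40-stimulated DCs of experiment 1 (arrays labelled Rag1-KO p38-KO minus Rag1-KO); filled red points are called at an adjusted p under 0.05. Ccl5 is called in all 3 Mst1/2-KO panels (-2.18, -0.99 and -1.49), Ccl22 in CD8+ DCs, and 0 of 8 genes in experiment 1.

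In Mst1/2-KO DCs the subsets were compared in the same way, with 2 chemokines called higher (Cxcl9 and Cxcl16) and 3 lower (Ccl5, Ccl3 and Ccl4) in CD8+ DCs, against 19.2% of all genes called, 9.93% higher and 9.3% lower. In 4 of these 5 genes the subsets did not overlap (21.9% of all genes). Cxcl9 was 3.40-fold higher in CD8+ DCs (1.76 ± 0.12, adjusted p = 4.77e-09) and Cxcl16 2.32-fold higher (1.21 ± 0.12, adjusted p = 8.43e-07), both without overlap. Ccl5 was 4.07-fold lower in CD8+ DCs (-2.02 ± 0.15, adjusted p = 2.07e-08), against 1.77-fold in WT, a widening that is the same contrast as the test between subsets above. Ccl3 was 3.33-fold lower (-1.73 ± 0.26, adjusted p = 6.45e-05) and Ccl4 1.51-fold lower (-0.59 ± 0.18, adjusted p = 0.0302), the latter with overlapping arrays. The Ccl4 call ended without Mst1/2-KO CD8+ replicate 3 or 4 or CD8- replicate 1 or 2 (adjusted p from 0.0604 to 0.114). With a block on the replicate number it held (-0.59 ± 0.12, adjusted p = 0.00436). Over all alternatives the adjusted p ran from 0.00436 to 0.114. As in WT, T cell, NK cell, and macrophage and monocyte markers were lower in CD8+ DCs too. Called lower were 6 of 8 T cell markers (mean over the list 4.12 to 4.21 in CD8+ against 4.81 to 5.26 in CD8- arrays), 4 of 8 NK cell markers (4.61 to 4.74 against 5.08 to 5.65) and 9 of 12 macrophage and monocyte markers (6.93 to 7.28 against 8.26 to 8.43). Of the plasmacytoid DC markers, mixed in WT, 4 of 8 were called lower here and 0 higher (6.98 to 7.09 against 7.83 to 8.22). The B cell list was mixed, with 3 of 8 called lower and 1, Ms4a1, higher (1.37 ± 0.18). The part of all these markers in the lower Ccl5, Ccl3 and Ccl4 was not tested.

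Ccl22, 6.56-fold apart between the WT subsets, differed by 1.44-fold in Mst1/2-KO and was not called there (0.53 ± 0.22, interval 0.07 to 0.99, adjusted p = 0.109). It was called without Mst1/2-KO CD8+ replicate 4, its lowest array (0.70, adjusted p = 0.0309; 0.0309 to 0.307 over the alternatives). Cxcl10 was not called either (-0.30 ± 0.19, interval -0.71 to 0.10, adjusted p = 0.328), nor was Ccl17 (-0.34 ± 0.26, adjusted p = 0.452). In order of mean level, Ccl22 ran from WT CD8+ (10.61 to 10.84) through Mst1/2-KO CD8+ (7.74 to 8.71) and WT CD8- (7.58 to 8.55) to Mst1/2-KO CD8- (7.42 to 8.11), and the last 3 groups overlapped with their neighbours. Cxcl9 ran from WT CD8+ (11.89 ± 0.15) through Mst1/2-KO CD8+ (11.54 ± 0.06) to WT CD8- (9.91 ± 0.25) and Mst1/2-KO CD8- (9.78 ± 0.21), so that both genotypes of a subset lay together. Ccl5 ran from WT CD8- (12.12 ± 0.12) through WT CD8+ (11.30 ± 0.08) and Mst1/2-KO CD8- (11.14 ± 0.38), which overlapped, to Mst1/2-KO CD8+ (9.11 ± 0.27).

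**Figure D3:**
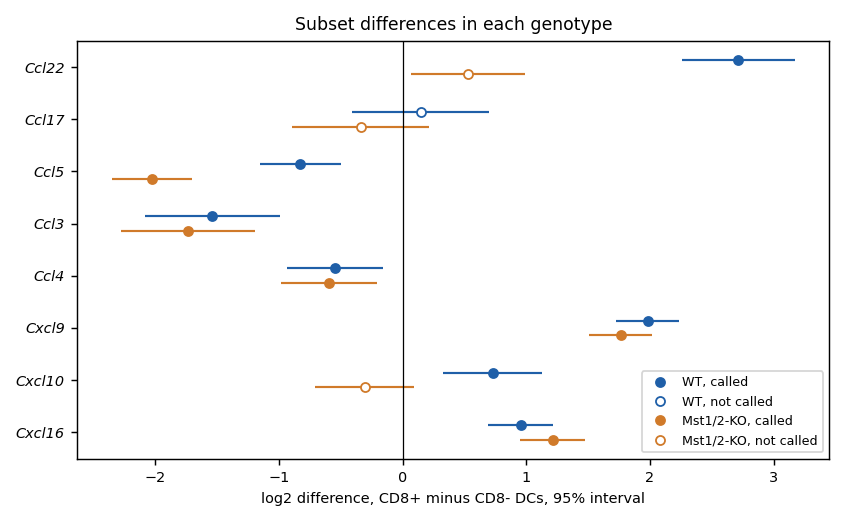
Log2 difference of CD8+ minus CD8- DCs (x axis, point with its 95% interval) for the 8 chemokine genes (y axis), in WT (blue) and Mst1/2-KO (orange); filled points are called at an adjusted p under 0.05. Cxcl9, Cxcl16, Ccl3 and Ccl4 lie on the same side of 0 and are called in both genotypes, while Ccl22 goes from 2.71 in WT to 0.53 in Mst1/2-KO and Ccl5 from -0.83 to -2.02.

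Total DCs, profiled under another experiment identifier, gave a further Mst1/2-KO comparison. Ccl5 and Ccl3 were called lower, 2 of 8 chemokines against 0.848% of all genes in either direction and 0.532% lower. All 8 estimates were below 0 (median -0.52 against 0.00 over all genes), 4 had an unadjusted p under 0.05 (13.2% of all genes), and in 4 genes every Mst1/2-KO array lay below every WT array (5.49% of all genes). Total DCs mix the subsets, so that a change in the share of a subset and a change within one cannot be told apart.

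Ccl5 read 11.45, 11.40, 11.77 and 11.64 in WT and 10.09, 9.79 and 10.34 in Mst1/2-KO total DCs, a 2.82-fold fall (-1.49 ± 0.15, interval -1.82 to -1.17, adjusted p = 0.00301). It was called in all 14 alternatives, and the genotypes lay about a log2 unit apart at their nearest arrays. Ccl3 read 10.95, 10.74, 10.97 and 11.05 against 9.55, 9.97 and 10.35, a 1.97-fold fall (-0.98 ± 0.17, adjusted p = 0.0350). The Ccl3 call ended without any 1 of the WT replicates 1 to 4 or Mst1/2-KO replicates 1 and 2 (adjusted p from 0.0614 to 0.152; 0.0145 to 0.152 over the alternatives). Ccl4 read 10.74, 10.72, 10.82 and 11.04 against 9.91, 9.93 and 10.50, where replicate 3 was the high Mst1/2-KO array. Its difference of -0.72 ± 0.16 was not called (adjusted p = 0.0718), and it was called without that array (adjusted p = 0.0220; 0.0220 to 0.266 over the alternatives).

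Ccl22 read 8.90, 9.42, 9.94 and 9.03 in WT and 8.28, 8.36 and 8.21 in Mst1/2-KO total DCs. The genotypes did not overlap, and the difference of -1.04 ± 0.22 (interval -1.52 to -0.55) was not called (adjusted p = 0.0628; 0.0415 to 0.212 over the alternatives). It was called with an intensity trend in the variance (adjusted p = 0.0415) and without WT replicate 1 or 3 (adjusted p = 0.0467 and 0.0445). Cxcl10 read 8.37, 7.14, 8.35 and 7.31 in WT, in which replicates 1 and 3 stood over the Mst1/2-KO arrays and replicates 2 and 4 did not, and 7.49, 7.61 and 7.32 in Mst1/2-KO (-0.32 ± 0.30, interval -0.98 to 0.35, adjusted p = 0.731). Cxcl16 read 9.84, 9.49, 10.00 and 9.44 against 9.31, 9.53 and 9.26 (-0.32 ± 0.15, adjusted p = 0.404), Cxcl9 10.92, 10.90, 11.02 and 10.49 against 10.70, 10.67 and 10.74 (-0.13 ± 0.13, adjusted p = 0.758), and Ccl17 4.08 to 4.81 against 4.19 to 4.53 (-0.26 ± 0.18, adjusted p = 0.610). In these 4 genes the genotypes overlapped.

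Of the CD8- DC markers, 8 of 10 had estimates below 0 in total DCs and 1 was called lower (mean over the list 7.06 to 7.46 in WT against 6.40 to 6.89 in Mst1/2-KO arrays), and of the CD8+ DC markers 9 of 10 had estimates above 0 with 0 called (9.02 to 9.55 against 9.50 to 9.57). In WT sorted cells Ccl5, Ccl3 and Ccl4 were higher in the CD8- subset, and the part of subset shares in the total DC differences was not tested. Of the macrophage and monocyte markers 9 of 12 had estimates below 0 and Adgre1, the gene of F4/80, was called lower (-1.47 ± 0.22, limma adjusted p = 0.0192; mean over the list 7.58 to 8.03 in WT against 7.37 to 7.78 in Mst1/2-KO arrays). Of the plasmacytoid DC markers 0 of 8 were called, with a median of -0.42 and 5 at an unadjusted p under 0.05 (6.98 to 7.95 against 6.64 to 7.67), and the part of these lists was not tested either. The other chemokines had 0 of 27 called (median -0.04) and the NF-kB genes 0 of 12, all 12 below 0 (median -0.29). Ccr7 (-1.53, from 10.20 ± 0.24 to 8.67 ± 0.29) was the 1 receptor gene called, and Socs2 (-1.66, from 5.86 ± 0.42 to 4.21 ± 0.62) the 1 interferon or STAT regulator.

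**Figure D4:**
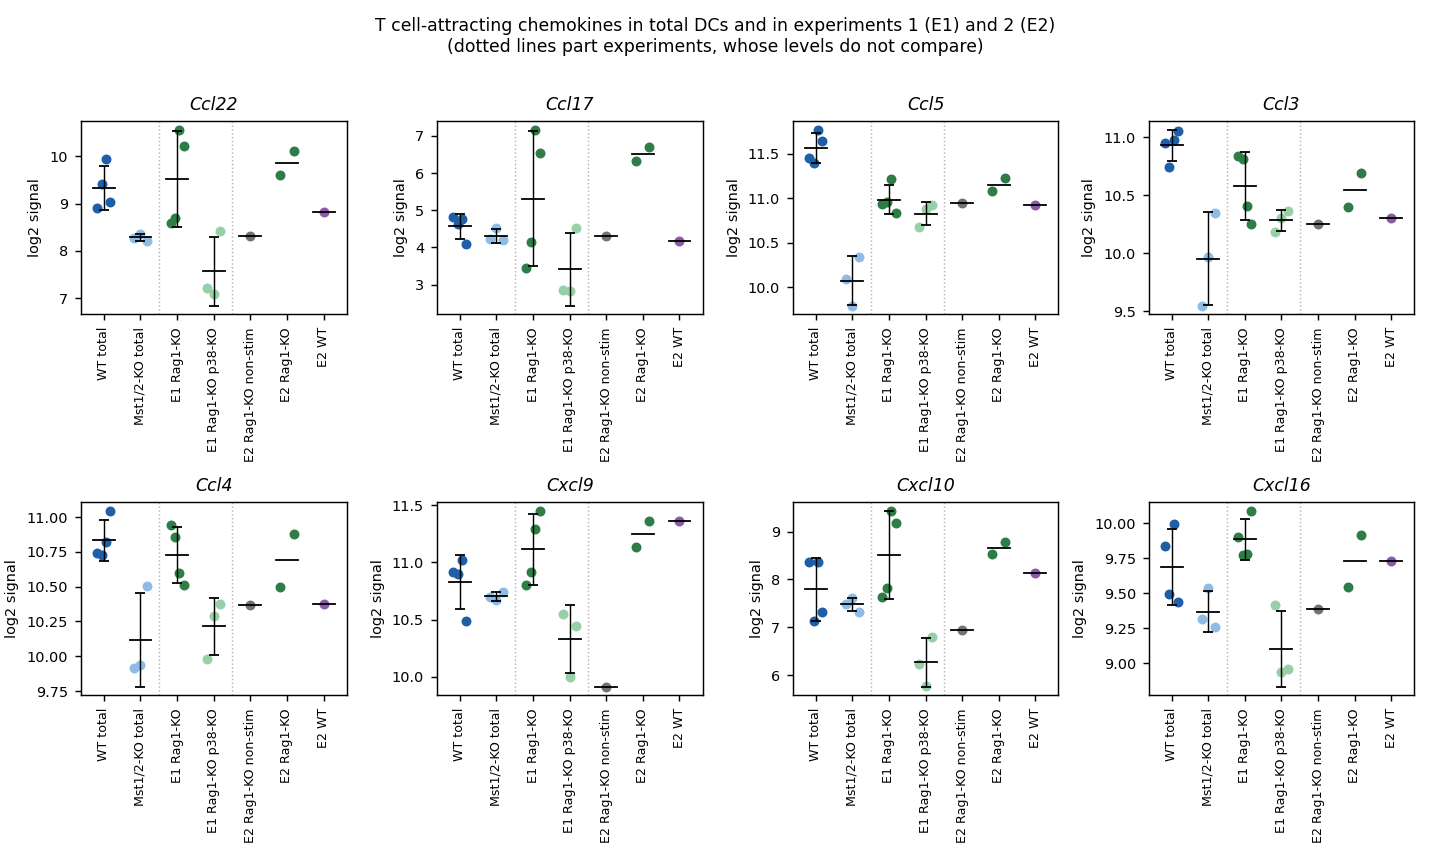
Log2 signal (y axis) of the 8 chemokine genes in total DCs and in experiments 1 (E1) and 2 (E2) (x axis, groups); each point is an array, the line is the mean and the bar the SD where a group has 3 or 4 arrays, and dotted lines part experiments whose levels are not comparable. Ccl5 in Mst1/2-KO total DCs (9.79 to 10.34) lies below WT (11.40 to 11.77), and Ccl22, Ccl17 and Cxcl10 in experiment 1 Rag1-KO arrays split into a lower and a higher pair.

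In experiment 1 the arrays labelled Rag1-KO p38-KO were compared with Rag1-KO arrays after anti-CD40. Of the 8 chemokines 0 were called, as were 0% of all 22180 genes. All 8 estimates were below 0 (median -0.78 against 0.00 over all genes), 5 had an unadjusted p under 0.05 (8.41% of all genes), and in 5 the arrays labelled Rag1-KO p38-KO all lay below the Rag1-KO arrays (3.6% of all genes).

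Ccl22 read 8.60, 8.69, 10.55 and 10.21 in Rag1-KO arrays 1 to 4 and 7.21, 7.09 and 8.41 in the arrays labelled Rag1-KO p38-KO (-1.94 ± 0.60, interval -3.37 to -0.52, adjusted p = 0.525). Ccl17 read 3.43, 4.14, 7.15 and 6.53 against 2.85, 2.84 and 4.53 (-1.91 ± 1.00, interval -4.29 to 0.48, adjusted p = 0.610). Several of these Ccl17 values lay at or below the array medians of 4.11 to 4.20. Cxcl10 read 7.63, 7.83, 9.42 and 9.18 against 6.24, 5.77 and 6.79 (-2.25 ± 0.51, interval -3.46 to -1.03, adjusted p = 0.399). In all 3 genes Rag1-KO replicates 3 and 4 lay well over replicates 1 and 2, and in the other group replicate 3 was the highest. Ccl17, called in none of the sorted and total DC comparisons, thus varied most between arrays here, and its groups overlapped, while those of Ccl22 and Cxcl10 did not.

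Cxcl16 read 9.90, 9.77, 9.78 and 10.09 against 9.42, 8.94 and 8.96, and Cxcl9 10.80, 10.91, 11.29 and 11.45 against 10.55, 10.00 and 10.44. Both had the same estimate to 2 decimals (-0.78 ± 0.14, adjusted p = 0.344, for Cxcl16 and -0.78 ± 0.20, adjusted p = 0.438, for Cxcl9) and groups that did not overlap. Ccl4 read 10.94, 10.86, 10.60 and 10.51 against 9.98, 10.29 and 10.37, also without overlap (-0.51 ± 0.14, adjusted p = 0.476). Ccl3 (10.25 to 10.84 against 10.18 to 10.37) and Ccl5 (10.83 to 11.21 against 10.68 to 10.92) overlapped, with estimates of -0.30 ± 0.16 and -0.16 ± 0.10 (adjusted p = 0.617 and 0.664).

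In experiment 1 the neutrophil, macrophage and monocyte, and NK cell lists had medians below 0, as the chemokines did (-1.21, -0.57 and -0.26), while the T cell, B cell and CD8- DC lists had medians above 0 (0.08, 0.10 and 0.32). The mean of the 10 neutrophil markers was 6.23, 5.79, 6.81 and 5.78 in the Rag1-KO arrays and 5.44, 5.12 and 3.98 in those labelled Rag1-KO p38-KO, with all 10 estimates below 0 and 0 called. The mean of the 12 macrophage and monocyte markers was 7.64, 7.48, 8.35 and 8.17 against 7.32, 7.62 and 7.23, so that Rag1-KO replicates 3 and 4 were again the high arrays. The mean of the CD8- DC markers was 6.91, 7.15, 6.53 and 6.38 against 6.99, 7.22 and 7.27. The part of these cells in the chemokine differences was not tested. With replicates 3 and 4 left out of both groups, a setting chosen after the data were seen, Ccl22 differed by -1.49 ± 0.07, Ccl17 by -0.94 ± 0.28, Cxcl10 by -1.72 ± 0.21, Cxcl9 by -0.58 ± 0.23, Cxcl16 by -0.66 ± 0.20, Ccl4 by -0.76 ± 0.13, Ccl3 by -0.59 ± 0.06 and Ccl5 by -0.17 ± 0.09, and 0 of 8 were called (adjusted p from 0.470 to 0.734). The Ccl17 and Ccl3 estimates moved by over 1.5 times and kept their sign. On the lists of other chemokines, receptors, NF-kB and interferon or STAT genes, 0 were called, and all 12 NF-kB genes had estimates below 0 (median -0.25).

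Experiment 2 offered a comparison of anti-CD40 with no stimulation in Rag1-KO DCs, in which the non-stimulated group is 1 array. Its fit held the 11 arrays of experiments 1 and 2, each group with its own mean. The lone array adds nothing to the spread, which comes mostly from experiment 1, and is taken to vary as much as the rest. In the experiment 1 Rag1-KO arrays the SDs of Ccl22, Ccl17 and Cxcl10 were 1.02, 1.80 and 0.92. In the experiment 2 anti-CD40 Rag1-KO pair they were 0.36, 0.26 and 0.18. All 8 chemokines read higher in both anti-CD40 arrays than in the non-stimulated array (33.1% of all genes did), with a median difference of 0.84 against -0.01 over all genes, 0 of 8 were called (0.0361% of all genes were), and 2 had an unadjusted p under 0.05 (13.1% of all genes).

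Cxcl9 read 9.91 without stimulation and 11.13 and 11.36 with anti-CD40 (1.34 ± 0.30, interval 0.65 to 2.02, adjusted p = 0.137). Cxcl10 read 6.94 against 8.52 and 8.78 (1.71 ± 0.73, adjusted p = 0.371), and Ccl22 8.32 against 9.60 and 10.11 (1.54 ± 0.87, adjusted p = 0.503). Ccl17 had the widest gap, from 4.31 to 6.33 and 6.70, and the widest interval (2.20 ± 1.43, -1.05 to 5.45, adjusted p = 0.572). For these 4 genes the pair of stimulated arrays lay at least a log2 unit over the lone array. The lone Ccl17 value was close to the array medians of 4.11 to 4.20. Ccl5 (10.94 against 11.08 and 11.22), Ccl3 (10.25 against 10.39 and 10.69), Ccl4 (10.37 against 10.50 and 10.88) and Cxcl16 (9.39 against 9.54 and 9.92) had estimates of 0.21 to 0.34 and adjusted p from 0.597 to 0.688. The neutrophil markers read higher too, 9 of 10 of them, with a mean over the list of 6.79 and 7.27 against 5.89. All 10 CD8+ DC markers had estimates above 0 as well (median 0.37, 4 with an unadjusted p under 0.05; mean over the list 9.69 and 9.72 against 9.26). The part of neither list was tested.

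The Rag1-KO and WT arrays after anti-CD40 were compared with the same pooled spread, the WT group being 1 array that shares its 2 Rag1-KO arrays with the comparison above. Of the 8 chemokines 0 were called (0.365% of all genes were), and 0 had an unadjusted p under 0.05 (14% of all genes). Ccl17 read 4.17 in WT and 6.33 and 6.70 in Rag1-KO (2.34 ± 1.43, adjusted p = 0.517), and Ccl22 8.82 against 9.60 and 10.11 (1.04 ± 0.87, adjusted p = 0.646). Cxcl9 read 11.37 in WT, just over both Rag1-KO arrays (-0.12 ± 0.30, adjusted p = 0.907), and Cxcl16 9.73, between them (-0.00 ± 0.23, adjusted p = 0.998). The other 4 genes had estimates from 0.23 to 0.51 with intervals that held 0. The WT value of Ccl17 was again close to the array medians. The neutrophil and NK cell markers read higher in Rag1-KO (medians 2.02 and 1.47). The mean of the B cell markers was 4.96 in WT and 4.15 and 4.19 in Rag1-KO, with Fcer2a (-1.62), Cd79a (-1.51) and Ms4a1 (-1.35) among the lower ones. The T cell marker Cd3e also read lower in Rag1-KO (-1.21), while the mean of the T cell markers was 4.69 in WT and 4.64 and 4.76 in Rag1-KO. The part of these markers in the chemokine differences was not tested.

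The 8 genes did not form 1 pattern across the 16 sorted arrays. Likeness was measured as the mean absolute difference between 2 genes after each was centred on its own mean, in log2 units, as a description with no test. Among the pairs of members, Cxcl9 and Cxcl16 were nearest (0.39) and Ccl3 and Cxcl9 farthest apart (1.75). Ccl3 and Ccl4, adjacent on the chromosome, lay 0.53 apart, and Ccl22 and Ccl17 1.07.

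For each member called in a sorted comparison, and so not for Ccl17, the 3 nearest genes were also found. The other members and genes with predicted or clone names were left out of this search. Ccl22, whose own mean absolute deviation was 1.02, was followed most closely by Gclc, a subunit of the enzyme that starts glutathione synthesis (0.35), Il12b, a subunit of interleukins 12 and 23 (0.45), and Enpp5 (0.46). Gclc stood at 9.06 in WT CD8+ DCs and at 6.69 to 7.14 in the other 3 groups. Ccl5 (own deviation 0.95) was followed by Gadd45b, a stress-induced gene (0.26), the tetraspanin gene Cd63 (0.32) and the guanylate-binding protein gene Gbp9 (0.34). Gadd45b stood at 9.91 in WT and 8.04 in Mst1/2-KO CD8+ DCs and at 10.71 and 9.72 in CD8- DCs. The nearest to Cxcl9 (own deviation 0.94) were Ppt2, Ildr1 and Ppfibp2 at 0.16 to 0.18, and to Cxcl16 (0.56) the transcriptional regulator gene Id2, Adam19 and Zc3h12c at 0.16 to 0.17. Ccl3 (0.82) was followed by Fam43a, Fcrl1 and Fyb at 0.26 to 0.28, Ccl4 (0.36) by Ppp1r15a, Polg2 and Sat1 at 0.14 to 0.17, and Cxcl10 (0.37) by Slc22a15, Cldn1 and Dok1 at 0.21 to 0.23.

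**Figure D5:**
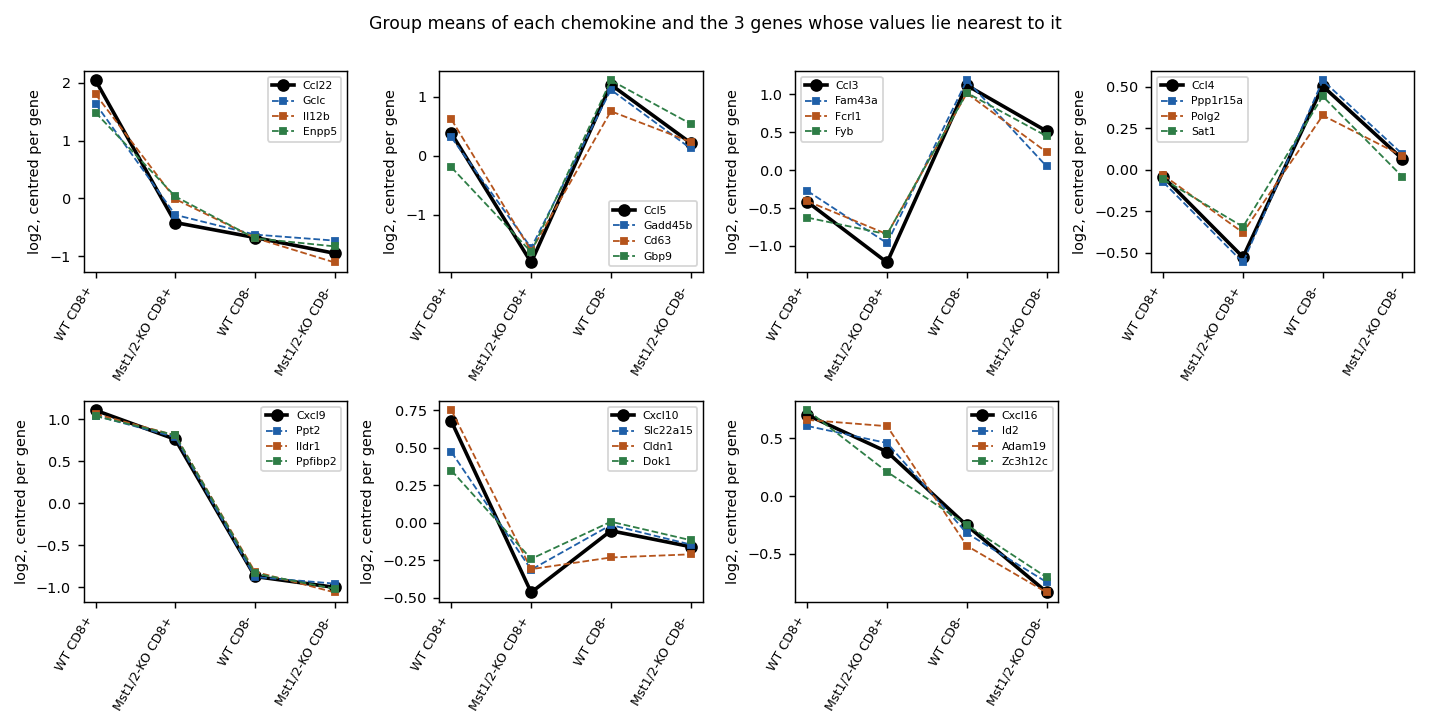
Group means of log2 signal, centred on each gene's mean over the 16 sorted arrays (y axis), in the 4 sorted groups (x axis), for 7 chemokine genes (black) and the 3 genes nearest to each (coloured); Ccl17, called in 0 of the sorted comparisons, is left out. Gclc, Il12b and Enpp5 are high in WT CD8+ DCs with Ccl22, and Gadd45b, Cd63 and Gbp9 are lowest in Mst1/2-KO CD8+ DCs with Ccl5.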

How the data were processed

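RNA of sorted mouse DCs was measured on 34 expression arrays. The values are deposited log2 signals of 41155 probe sets, and RMA and Partek 6.6 are named in the submitters' processing notes; the genome build and the presence calls were not given in the sources used here. Within each of the 4 experiment identifiers (sorted, total, experiment 1 and experiment 2), 100% of probe sets share their trailing decimals across arrays, against 0.00972% between identifiers, as a constant added per probe set and identifier would leave, and levels were compared only within one. Probe sets with 1 gene symbol (23521 of 41155) were kept, 1814 carried several and 15820 none, and for the 1082 genes with several the highest mean was taken, leaving 22180 genes. Number of arrays limits the precision.

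Linear models came from limma (version 3.58.1, R 4.3.3), with eBayes and Benjamini-Hochberg adjustment over all genes, and the code was tested on simulated data. The sorted fit held 16 arrays, those of total DCs and experiment 1 held 7 each, and that for experiment 2 held the 11 of experiments 1 and 2. In the WT subsets, same-numbered CD8+ and CD8- arrays deviated together (r from 0.13 to 0.34 in 4 of 4 pairs). The labels do not say that a number marks a shared animal. Correlations between arrays of unlike number were not computed, so that a pairing is not established. A block on the number was run as an alternative. The genes, the lists (4 of pathway genes and 10 of markers) and the tests were chosen with earlier results of these data known. Named genes were the 8 chemokines, the targeted genes, up to 3 called genes per list with the largest change, and the 3 genes most alike each chemokine called in a sorted comparison; Cx3cl1 was added as a neighbour. Alternatives covered normalization, gene filter, probe set choice, variance model, arrays fitted, block and single arrays left out.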

Additional observations from a re-analysis of the deposited data

Results flagged for a closer look

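In the groups of 4 arrays, the highest and lowest array were compared with the others by Dixon's test at its 95% critical value, and 4 of 48 gene and group sets had an array far from the rest; chance gives about 5% of such sets. Of these 4, 3 were the same array, Mst1/2-KO CD8- replicate 4. It read 10.57 for Ccl5, where the other 3 arrays lay between 11.29 and 11.37. For Cxcl9 it read 9.47 against 9.84 to 9.90, and for Cxcl16 8.46 against 8.78 to 8.83. Without it the Mst1/2-KO difference in CD8- DCs was -0.80 ± 0.12 for Ccl5 (limma adjusted p = 0.00109), -0.49 ± 0.13 for Cxcl16 (adjusted p = 0.0378) and -0.03 ± 0.12 for Cxcl9 (adjusted p = 0.955), so that both calls were kept. The remaining array was Mst1/2-KO CD8+ replicate 3, which read 9.89 for Cxcl16 where the others lay at 9.95, a small gap in a tight group.

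The effect of the Mst1/2 deletion differed between CD8+ and CD8- DCs for Ccl22 by -2.18 and for Ccl5 by -1.20 on the log2 scale, by the interaction test of limma. Without Mst1/2-KO CD8- replicate 4 these were -2.29 ± 0.32 (adjusted p = 0.00301) and -1.39 ± 0.16 (adjusted p = 0.000622).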

How the results depend on the processing

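Over the 8 chemokines, 9 comparisons and their alternatives, 1017 values kept their direction and side of the threshold, 20 lost a call, 10 gained one and 9 changed sign, none of these 9 called. Leaving out 1 array at a time, the number of chemokines called was 3 to 3 for Mst1/2-KO in CD8+ DCs, 2 to 2 in CD8- DCs, 2 to 2 for the difference between subsets, 6 to 7 between WT subsets, 4 to 5 between Mst1/2-KO subsets, 1 to 3 in total DCs and 0 to 0 in experiments 1 and 2. In total DCs 4 were called with an intensity trend and 1 with the replicate block.

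With the replicate block, 4 chemokines were called in CD8- DCs (Ccl3 and Ccl4 in addition, adjusted p = 0.0484 and 0.0254) and Ccl3 was added in CD8+ DCs (adjusted p = 0.0458). Between genotypes the numbers are shared too, and the labels state no pairing. Correlations of same-numbered deviations were -0.07 to 0.09 in CD8+, 0.01 to 0.09 in CD8-, 0.05 to 0.13 in total DCs and 0.09 to 0.16 in experiment 1. Between the Mst1/2-KO subsets, within 1 genotype, these correlations were 0.09 to 0.21, over 0.1 in 3 of 4 pairs. The block changed no call between the WT subsets. No paired analysis was possible for experiment 2 because its groups share fewer than 2 numbers.

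With single arrays left out, values that changed sign ran from -0.24 to 0.059 for Ccl17 in CD8+ DCs (above 0 without WT CD8+ replicate 3 or Mst1/2-KO CD8+ replicate 1), from -0.21 to 0.13 for the Ccl4 difference between subsets (above 0 without WT CD8+ replicate 2, Mst1/2-KO CD8+ replicate 3 or CD8- replicate 2), from -0.36 to 0.14 for that of Ccl3 (above 0 without Mst1/2-KO CD8+ replicate 3) and from -0.19 to 0.19 for Cxcl16 between Rag1-KO and WT (above 0 without Rag1-KO replicate 1). This last value was 0.052 with quantile normalization and 0.049 with cyclic loess. The cause was not tested.

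Counts over all genes moved more. In CD8+ DCs 197 genes were called, 123 with only the groups compared, and 114 and 126 without Mst1/2-KO CD8+ replicate 3 or 4. In CD8- DCs it was 1482, and 940 and 918 without WT replicate 2 or Mst1/2-KO replicate 4. The difference between subsets called 124 genes, 211 with the replicate block, and 79 to 259 with single CD8- arrays left out. Total DCs gave 188, 296 among genes above the median, 108 with the block, and 39 to 124 without WT replicate 2, 3 or 4 or Mst1/2-KO replicate 1 or 2. In experiment 2, stimulation gave 8 (1 above the median, 18 with the trend, 39 and 136 without Rag1-KO replicate 1 or 3), and genotype 81 (4 above the median, 195 and 234).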
